A study of Mus musculus with 10 samples.

Results

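Transcripts that mark Merkel cells were followed in ILK-deficient and ILK-expressing mouse epidermis through 8 genes, chosen by name: Atoh1, Krt8, Krt18, Krt20, Isl1, Sox2, Piezo2 and Insm1. They are 8 of the 19938 genes that the platform annotation ties to a probe set with 1 gene symbol. ILK-deficient mice (K14Cre; Ilk f/f) carried 2 floxed Ilk alleles and ILK-expressing mice (K14Cre; Ilk f/+) carried 1, so that the control tissue kept a functional allele. Both genotypes carried 1 copy of the KRT14-cre transgene, from the strain Tg(KRT14-cre)1Amc/J, and came from crosses with the strain Ilktm1Star. The keratin 14 promoter directs Cre to keratinocytes of the basal layer, and the arrays do not show in which cells the allele was recombined. Mice were 3 days old, their epidermis was freed from the dermis with dispase, and RNA of 5 mice of each genotype was hybridized to 10 GeneChip Mouse Gene 1.0 ST Arrays, 1 array per mouse.

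Merkel cells are mechanosensory epidermal cells that sit in touch domes beside guard hairs and in glabrous skin, where they contact slowly adapting sensory nerve endings. In the mouse they arise from Krt14-expressing progenitors of the epidermis, and their formation requires the transcription factor Atoh1. They hold the keratins of simple epithelia, Krt8, Krt18 and Krt20, together with dense-core vesicles and other features of neurosecretory cells, and they sense touch through the ion channel Piezo2. Because they are a small minority of epidermal cells, their transcripts are diluted in RNA of whole epidermis. In such bulk RNA, fewer Merkel cells and less RNA of a gene per cell cannot be told apart.

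The sequence just ahead of the 3 keratin genes is shown because these filament proteins are the classical histological marks of the Merkel cell, and 2 of them lie side by side. Each stretch holds the 100 bases before and the first 10 bases after the start listed by RefSeq (GRCm38.p6), and capitals mark TATAAA. Krt8 lies at chr15:102004333-102004442 on the minus strand, Krt18 at chr15:102028116-102028225 on the plus strand and Krt20 at chr11:99438144-99438253 on the minus strand.
Krt8: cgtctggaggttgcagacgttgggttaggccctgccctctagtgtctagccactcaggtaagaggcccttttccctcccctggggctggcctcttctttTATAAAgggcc
Krt18: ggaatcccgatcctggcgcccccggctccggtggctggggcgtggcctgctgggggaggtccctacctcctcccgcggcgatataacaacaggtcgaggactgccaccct
Krt20: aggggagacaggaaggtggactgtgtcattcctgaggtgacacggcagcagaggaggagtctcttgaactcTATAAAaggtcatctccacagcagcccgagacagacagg

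TATAAA began 29 bases before the listed start of Krt20 and 1 base before that of Krt8, and these letters were not in the Krt18 window. Searched on both strands of the 300-base promoter entries, TATAAA was present in 2 of the 6 Merkel cell genes with an entry and in 13.6% of all 32851 promoters. The E-box pattern CANNTG, which reads the same on both strands and is the type of site that Atoh1 binds, was present in 4 of the 6 (66.7%) and in 72.3% of all promoters. Krt8 and Krt18 lie head to head on chromosome 15, with 2 non-coding genes and no protein-coding gene between them. A match of letters is a description of the sequence and not a binding site.

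One value per probe set and array was deposited, on a log2 scale, and the median of an array lay between 7.07 and 7.17. Each of the 8 genes passed the filter on low values, at least 50 on the linear scale in 5 or more arrays, and 7 of them were measured by 1 probe set and Piezo2 by 3. The chemoreceptor genes of the nose, the olfactory and vomeronasal receptors, served as a mark of low signal, since 1210 probe sets measure them. Their 95th percentile lay between 6.92 and 7.52 on the single arrays. Krt8 was above it on all 10 arrays, whereas Atoh1, Krt18, Krt20, Isl1, Sox2, Insm1 and Piezo2 were above it on none. For comparison, 49.4% of all probe sets were above it on at least 5 arrays. Probes differ in how strongly they bind, so this percentile is a rough mark, but by this measure the Merkel cell label rested on Krt8 alone, a keratin that other simple epithelial cells also contain. The array values of Ilk itself overlapped between genotypes, at 8.75 to 9.07 in ILK-deficient and 9.01 to 9.38 in ILK-expressing epidermis. The difference was -0.23 (standard error, SE, 0.0949, limma adjusted p = 0.253). The Ilk probe set pools probes along the transcript, so it checks the genotype labels little. The paper reports lower signal of the deleted Ilk exons on its arrays, and reduced ILK protein, in ILK-deficient epidermis.

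Of the 8 Merkel cell genes, 1 rose in ILK-deficient epidermis, 7 did not pass the test and none fell. Piezo2 was the gene that rose, 1.29-fold, and the only one at an unadjusted p under 0.05. Its call did not hold in every fit, as given with its values. The test was limma's moderated test on 5 against 5 arrays, with Benjamini-Hochberg adjustment over 32046 probe sets and a threshold of 0.05, by which 3.78% of all probe sets were called, 2.81% higher and 0.97% lower. An unadjusted p under 0.05 was found for 15.9% of all probe sets. The methods' rule, 1.5-fold at an unadjusted p under 0.05, called none of the 8 genes and 2.63% of all probe sets. The log2 fold changes of the 8 genes were positive for 4 and negative for 4, with a median of 0.02, against 0.00 over all probe sets tested. The 95% intervals of the 7 uncalled genes lay between -0.31 and 0.31 on the log2 scale, which is between 0.806-fold and 1.24-fold. These bounds hold for the array values, and because all but Krt8 were within the chemoreceptor range they do not bound the change of the transcripts.

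**Figure D1:**
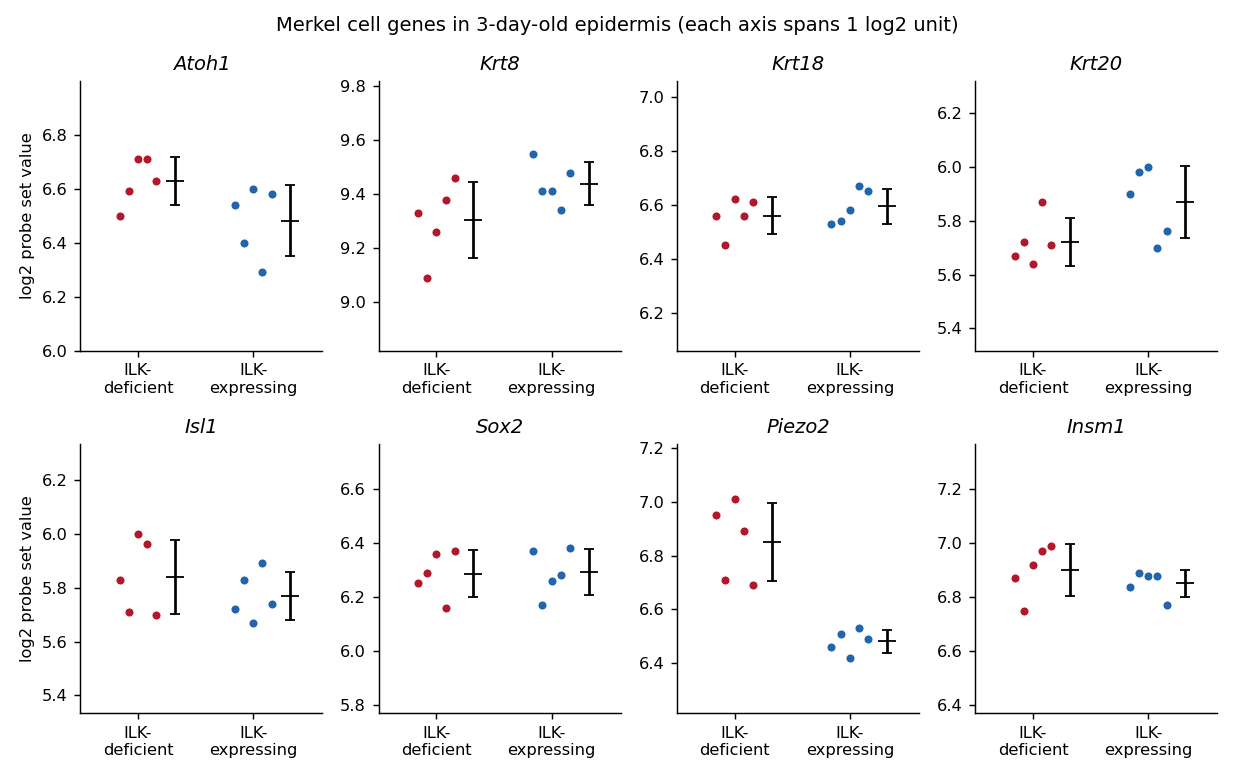
Log2 probe set value (vertical axis) of the 8 Merkel cell genes in ILK-deficient (left, red) and ILK-expressing (right, blue) epidermis, 1 point per array and mouse, with the mean and SD of 5 arrays as bars. Each panel spans the same distance on the log2 scale, and the genotypes are apart only for Piezo2, at 6.69 to 7.01 against 6.42 to 6.53.

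Atoh1 encodes the basic helix-loop-helix factor without which Merkel cells do not form. It measured 6.50, 6.59, 6.71, 6.71 and 6.63 in ILK-deficient replicates 1 to 5, and 6.54, 6.40, 6.60, 6.29 and 6.58 in ILK-expressing replicates 1 to 5. ILK-deficient replicates 3, 4 and 5 were above every ILK-expressing array, and the other two overlapped with them. The log2 fold change was 0.14 (95% interval -0.02 to 0.31), with an adjusted p = 0.411 from limma and p = 0.0794 in a two-sided exact permutation test.

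Isl1, a LIM-homeodomain factor, and Sox2, an HMG-box factor, are expressed in Merkel cells and are required for their full maturation or number in mice. Isl1 had values of 5.83, 5.71, 6.00, 5.96 and 5.70 in ILK-deficient arrays, against 5.72, 5.83, 5.67, 5.89 and 5.74 in ILK-expressing arrays. The 2 highest values were from ILK-deficient replicates 3 and 4, and the remaining ones were interspersed. Its log2 fold change was 0.07 (95% interval -0.10 to 0.24, adjusted p = 0.783 from limma).

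Sox2 measured 6.25, 6.29, 6.36, 6.16 and 6.37 in ILK-deficient and 6.37, 6.17, 6.26, 6.28 and 6.38 in ILK-expressing epidermis. The genotypes covered nearly the same range. The log2 fold change was the smallest of the 8 in size, at -0.01 (95% interval -0.15 to 0.14, adjusted p = 0.985 from limma). Its sign was not stable, turning positive when single arrays were left out or when the label prefix of the arrays was a block.

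Insm1 encodes a zinc-finger repressor of neuroendocrine cells. Its values were 6.87, 6.75, 6.92, 6.97 and 6.99 in ILK-deficient epidermis, against 6.84, 6.89, 6.88, 6.88 and 6.77 in ILK-expressing epidermis. ILK-deficient replicate 2 was below every ILK-expressing array, while replicates 3, 4 and 5 were above all of them. The log2 fold change was 0.05 (95% interval -0.08 to 0.18, adjusted p = 0.827 from limma).

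The 3 keratins had log2 fold changes below 0, and none passed the test. Krt8, the type II keratin of the Merkel cell filament, measured 9.33, 9.09, 9.26, 9.38 and 9.46 in ILK-deficient and 9.55, 9.41, 9.41, 9.34 and 9.48 in ILK-expressing epidermis. ILK-deficient replicates 1, 2 and 3 were below every ILK-expressing array, and replicates 4 and 5 lay within the ILK-expressing range. The log2 fold change was -0.13 (95% interval -0.30 to 0.04), with an adjusted p = 0.485 from limma and p = 0.0952 in the exact permutation test.

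Krt18, the type I keratin that pairs with Krt8, measured 6.56, 6.45, 6.62, 6.56 and 6.61 in ILK-deficient epidermis, against 6.53, 6.54, 6.58, 6.67 and 6.65 in ILK-expressing epidermis. The genotypes overlapped except for the lowest array, ILK-deficient replicate 2, and the 2 highest, ILK-expressing replicates 4 and 5. The log2 fold change was -0.03 (95% interval -0.16 to 0.09, adjusted p = 0.896 from limma). Krt20, the type I keratin most specific to Merkel cells within the epidermis, measured 5.67, 5.72, 5.64, 5.87 and 5.71 in ILK-deficient and 5.90, 5.98, 6.00, 5.70 and 5.76 in ILK-expressing epidermis. ILK-expressing replicates 1, 2 and 3 were above every ILK-deficient array. The log2 fold change was -0.14 (95% interval -0.31 to 0.03), with an adjusted p = 0.434 from limma and p = 0.0714 in the exact permutation test.

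**Figure D2:**
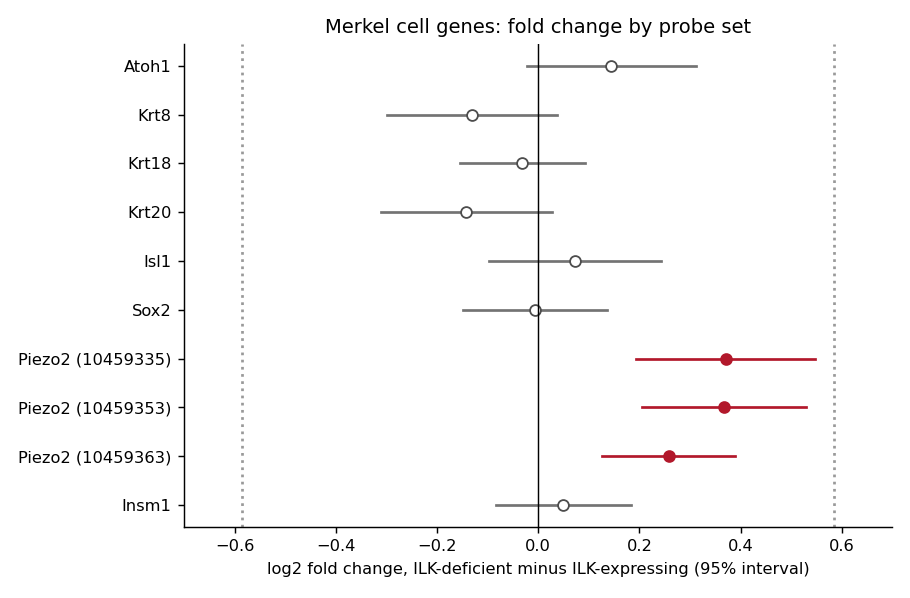
Log2 fold change of each Merkel cell gene, ILK-deficient minus ILK-expressing (horizontal axis), with its 95% interval from limma, 1 row per probe set and 5 arrays per genotype. Filled red points have an adjusted p under 0.05, and dotted lines mark a 1.5-fold difference. The 3 Piezo2 probe sets lie between 0.26 and 0.37, and the intervals of the other 7 genes span 0.

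Piezo2, the mechanically gated cation channel through which Merkel cells respond to indentation, was higher in ILK-deficient epidermis by each of its probe sets. Probe set 10459353, which has the highest mean and represents the gene, measured 6.95, 6.71, 7.01, 6.89 and 6.69 in ILK-deficient arrays, against 6.46, 6.51, 6.42, 6.53 and 6.49 in ILK-expressing arrays. Every ILK-deficient array was above every ILK-expressing array. It averaged 6.85 ± 0.144 in ILK-deficient and 6.48 ± 0.0445 in ILK-expressing epidermis (SD, n = 5 each), a log2 fold change of 0.37 (SE 0.0732, 95% interval 0.21 to 0.53, limma adjusted p = 0.0231).

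Probe set 10459335 measured 6.45, 6.42, 6.46, 6.49 and 6.39 in ILK-deficient epidermis, and 6.07, 6.12, 5.82, 6.05 and 6.28 in ILK-expressing epidermis, with a log2 fold change of 0.37 (SE 0.0798, limma adjusted p = 0.0308). Probe set 10459363 measured 6.84, 6.71, 6.84, 6.71 and 6.73 in ILK-deficient epidermis, and 6.42, 6.60, 6.45, 6.58 and 6.48 in ILK-expressing epidermis, with a log2 fold change of 0.26 (SE 0.0598, limma adjusted p = 0.041). Neither probe set had overlapping genotypes, and all 3 gave p = 0.00794 in the exact permutation test, the smallest that 5 against 5 arrays allow. Over all probe sets, 6.33% had no overlap between genotypes, 4.37% with higher values in ILK-deficient epidermis. The 3 probe sets measure the same RNA samples and are not replicates of each other.

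**Figure D3:**
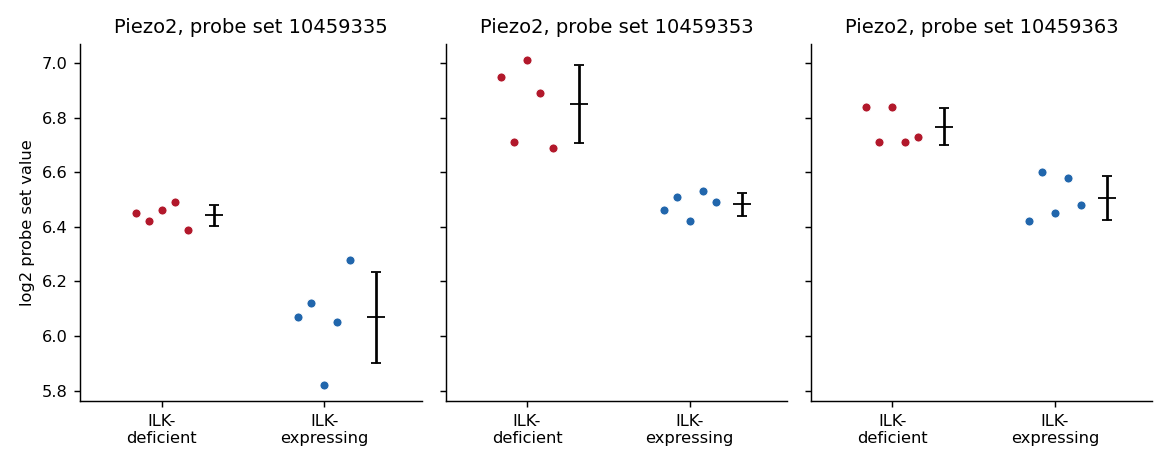
Log2 value (vertical axis) of the 3 Piezo2 probe sets in ILK-deficient (left, red) and ILK-expressing (right, blue) epidermis, 1 point per array, with the mean and SD of 5 arrays as bars. In each panel the lowest ILK-deficient array is above the highest ILK-expressing one, most narrowly at 6.39 against 6.28 and at 6.71 against 6.60.

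The Piezo2 values lay in the range of the chemoreceptor probe sets, where small differences are measured least well. None of the 1100 chemoreceptor probe sets tested was called, and their median log2 fold change was -0.06. Of the 14464 tested probe sets that did not exceed the chemoreceptor percentile on 5 arrays, 0.968% were called higher. The Piezo2 call was lost when ILK-deficient replicate 1 (adjusted p = 0.0585 from limma), ILK-deficient replicate 4 (0.0533), ILK-expressing replicate 1 (0.0511) or ILK-expressing replicate 3 (0.0511) was left out. With 1 array left out at a time, the log2 fold change stayed between 0.33 and 0.41. The call was also lost with the replicate number as a block (limma adjusted p = 0.0911), with the letter prefix of the array labels as a block (0.0563) and among the arrays of prefix D alone (0.0894).

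Piezo2 is also expressed by sensory neurons, and Schwann cells and melanocytes share the skin with Merkel cells. The 6 sensory neuron markers with a probe set, among them Scn9a, a sodium channel (log2 fold change -0.10, limma adjusted p = 0.658), and Avil, an actin-binding protein of sensory neurons (-0.12, 0.454), were all within the chemoreceptor range on most arrays, and the mean of the 4 that passed the filter was 6.01 to 6.13 in ILK-deficient and 6.06 to 6.21 in ILK-expressing arrays, with none called. Melanocyte markers were higher in ILK-deficient epidermis, with 4 of 7 called higher and none lower, and their mean level was 9.48 to 10.36 in ILK-deficient and 7.95 to 8.96 in ILK-expressing arrays. Over all probe sets, 2.81% were called higher. The enzymes of melanin synthesis Tyr (log2 fold change 1.55, adjusted p = 0.0163 from limma) and Dct (1.53, adjusted p = 0.0313), the melanosome protein Pmel (1.28, adjusted p = 0.0312) and the transcription factor Mitf (0.81, adjusted p = 0.0335) rose. The other 3, among them Tyrp1 and Kit, had log2 fold changes between 0.71 and 2.23 and did not pass. The largest was that of Tyrp1 (limma adjusted p = 0.0511). No melanocyte marker was within the chemoreceptor range on most arrays. The melanocyte genes include some that the study names as raised, so their count is not independent evidence of a direction, and leaving out 1 array at a time gave between 1 and 4 calls. Of 4 Schwann cell markers tested, 1 was called, Sox10, a neural crest factor also of melanocytes (0.69, adjusted p = 0.00569 from limma). At an unadjusted p under 0.05 from limma, all 4 were higher, against 10.2% of all probe sets. The receptor gene Erbb3 (0.30, adjusted p = 0.115) and the myelin gene Mbp (0.18, adjusted p = 0.167) did not pass, and the mean of the 4 was 8.19 to 8.33 in ILK-deficient and 7.88 to 8.02 in ILK-expressing arrays. Foxd3, above the chemoreceptor percentile on no array, did not pass either (0.16, adjusted p = 0.147 from limma). The part of these cell types in the Piezo2 values was not tested.

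Whether the Merkel cell genes vary together between mice of 1 genotype could be read only within limits, since 7 of the 8 were above the chemoreceptor percentile on no array. After the genotype mean was removed from each array, 28 pairs of genes gave Pearson correlations from -0.579 to 0.853 over 10 arrays, 16 of them positive. The highest was that of Isl1 with Piezo2, r = 0.853 (exact permutation within genotypes, two-sided, p = 0.0143, adjusted over the 28 pairs 0.401) and Spearman's rho = 0.915 (exact permutation p = 0.00667, adjusted 0.187). It was r = 0.811 without the 2 arrays farthest from the median, and no pair passed after adjustment. Isl1 also followed the median of the chemoreceptor probe sets of the same array, at r = 0.758 (exact permutation p = 0.00931, adjusted over 8 genes 0.0744) and rho = 0.697 (exact permutation p = 0.0103, adjusted 0.0828), and at r = 0.721 without the 2 farthest arrays. For Piezo2 the same correlation was r = 0.503 (exact permutation p = 0.0583, adjusted 0.155) and rho = 0.588 (exact permutation p = 0.0319, adjusted 0.128), and r = 0.544 without the 2 farthest arrays. The filament partners Krt8 and Krt18 had r = 0.302 (exact permutation p = 0.43) and rho = -0.0303.

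Among 18120 other genes and over the 10 arrays, the 3 whose deviations were most like those of a Merkel cell gene were Scara3, Bap1 and Zfp60 for Atoh1 (r = 0.921 to 0.93), Fgb, Alppl2 and Bfsp2 for Isl1 (0.966 to 0.974), F3, Ermp1 and Serhl for Sox2 (0.939 to 0.944) and Accsl, Slc7a13 and Naip2 for Insm1 (0.939 to 0.951). For the keratins they were Tbc1d32, Amer1 and Catip for Krt8 (0.887 to 0.94), Ttpa, Tnmd and Dmac2 for Krt18 (0.911 to 0.929) and H4c9, Ccdc58 and Cyp3a11 for Krt20 (0.919 to 0.924). For Piezo2 they were Scg5, which encodes a neuroendocrine chaperone protein (0.953), Vsig2 (0.945) and H2-M10.1 (0.938). None of these 24 genes passed the test between genotypes, and Scg5 was the 1 among them that stood in a list of other Merkel cell genes. These values rank the highest of many correlations over few arrays and are given as a description.

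Among other factors, keratins, vesicle, peptide, channel and surface genes listed for Merkel cells, Ncam1 was the only one called. Over all probe sets, 3.78% were called. Of 2 further transcription factors tested, Hes6, a bHLH gene of the Hes family, had a log2 fold change of 0.29 (adjusted p = 0.141 from limma) and Gfi1, a zinc-finger repressor, one of -0.01 (adjusted p = 0.976). A further one, Pou4f3, did not pass the filter on low values. Of 3 simple epithelial keratins none was called, with Krt7 at 0.06 (adjusted p = 0.794) and Krt23, also a keratin of other skin epithelia, at -0.33 (adjusted p = 0.609).

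Of 25 genes of vesicles and synapses, 22 had a probe set of their own and 20 passed the filter and were tested, with none called and a median log2 fold change of 0.02, against 0.00 over all probe sets. Only Chga and Cpe were above the chemoreceptor percentile on most arrays. Chga, which encodes the granule protein chromogranin A, measured 8.50 to 9.31 in ILK-deficient and 9.01 to 10.42 in ILK-expressing epidermis, with a log2 fold change of -0.55 (SE 0.263, limma adjusted p = 0.355). Cpe, a carboxypeptidase that processes prohormones, had a log2 fold change of 0.33 (adjusted p = 0.676). Syt1, a calcium sensor of vesicle fusion named after its values were seen, had genotypes that did not overlap, at 5.84 to 6.02 in ILK-deficient and 6.04 to 6.25 in ILK-expressing arrays, and did not pass (log2 fold change -0.22, adjusted p = 0.079). No overlap with lower values was seen for 1.96% of all probe sets.

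Neuropeptide and neurotrophin genes were tested for 5 of 8, with none called. Penk, which encodes the enkephalin precursor, had a log2 fold change of -0.13 (adjusted p = 0.567 from limma) and Bdnf, a neurotrophin, one of 0.11 (adjusted p = 0.536). Of 7 mechanotransduction and excitability genes, none was called, and their log2 fold changes lay between -0.05 and 0.07. Piezo1, the related channel found broadly in epithelia, measured 11.07, 10.80, 10.79, 10.30 and 10.85 in ILK-deficient and 10.70, 10.77, 10.68, 10.73 and 10.92 in ILK-expressing arrays, a log2 fold change of 0.00 (95% interval -0.27 to 0.28, adjusted p = 0.998). The difference between the fold changes of Piezo2 and Piezo1 was not tested. The calcium channel gene Cacna1d had a log2 fold change of 0.06 (adjusted p = 0.771).

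Ncam1, a neural cell adhesion molecule found on Merkel cells and on other skin cells such as nerve, muscle and dermal papilla cells, was the 1 gene called of 5 tested for neuronal cytoskeleton and surface. It measured 10.28, 10.07, 9.79, 10.09 and 10.54 in ILK-deficient arrays and 9.08, 9.01, 8.90, 8.56 and 9.44 in ILK-expressing arrays, without overlap. Its log2 fold change was 1.15 (SE 0.17, limma adjusted p = 0.00664), or 2.23-fold, and it was called in all 10 sets that left out 1 array (adjusted p 0.00473 to 0.0203). The unconventional myosin Myo6 (-0.28, adjusted p = 0.463) and the actin-bundling protein Espn (0.09, adjusted p = 0.518) did not pass. Muscle markers, among them Ckm (0.17, adjusted p = 0.52) and Myh11 (-0.05, adjusted p = 0.798), were within the chemoreceptor range on most arrays, at a mean of 6.06 to 6.30 in ILK-deficient and 6.07 to 6.25 in ILK-expressing epidermis. The mean level of the 7 dermal fibroblast and papilla markers tested was 7.40 to 7.91 in ILK-deficient and 7.25 to 7.65 in ILK-expressing arrays. All 7 had positive log2 fold changes, with a median of 0.18 and none called. Only Col1a1, Col1a2 and Dcn among them were above the chemoreceptor percentile on most arrays. Dcn, a matrix proteoglycan, had 0.77 (adjusted p = 0.467) and Col1a2, a fibrillar collagen chain, 0.40 (adjusted p = 0.0777). The genotypes did not overlap for Col1a2, at 7.83 to 8.17 in ILK-deficient and 7.23 to 7.75 in ILK-expressing arrays. No overlap with higher values was seen for 4.37% of all probe sets. The part of dermal, nerve and other cells in the Ncam1 values was not tested.

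**Figure D4:**
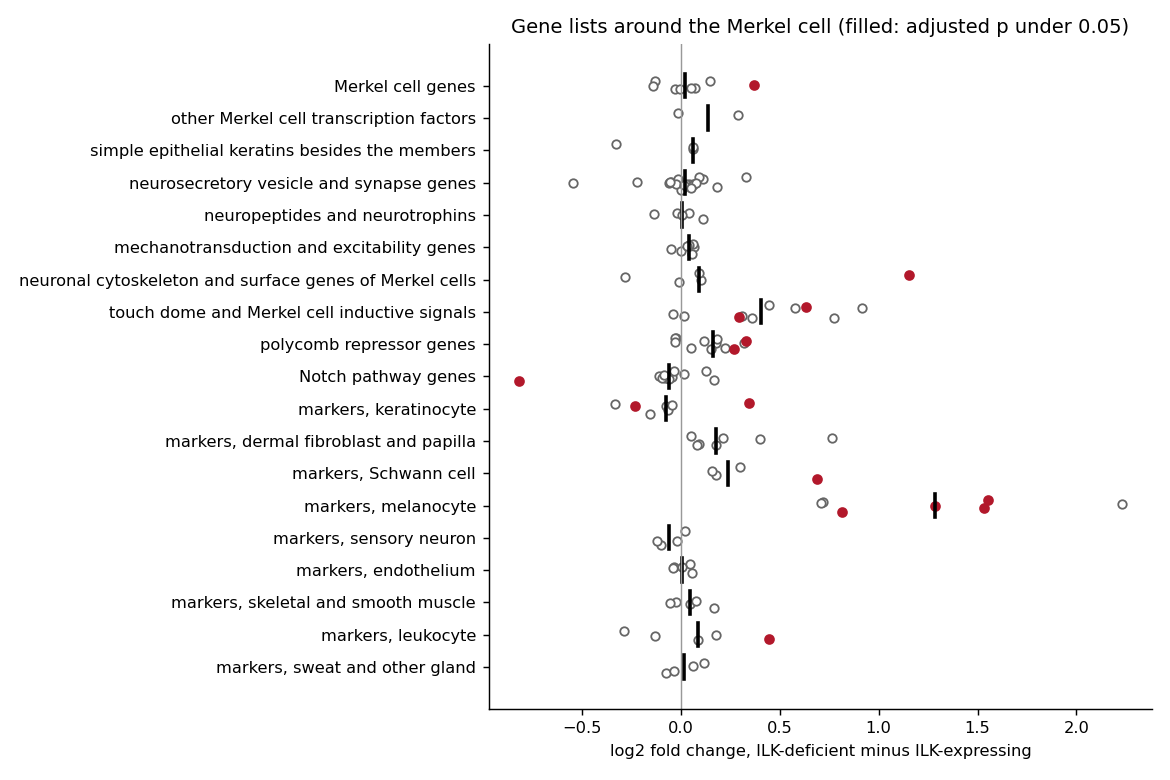
Log2 fold change, ILK-deficient minus ILK-expressing (horizontal axis), of each tested gene in the gene lists and marker lists (rows), with the list's median as a bar and filled red points for an adjusted p under 0.05 from limma. The Merkel cell genes centre on 0.02, while touch dome signals centre on 0.40 and melanocyte markers on 1.28.

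Of 10 genes of the touch dome and of the signals that precede Merkel cell formation, 2 were called higher in ILK-deficient epidermis and none lower. Over all probe sets, 2.81% were called higher and 0.97% lower. Log2 fold changes were positive for 9 of the 10 genes, with a median of 0.40, against 0.00 over all probe sets. Hedgehog signalling and the ectodysplasin pathway, which also drive hair follicles, are needed for Merkel cells in hairy skin. Cd200, a surface glycoprotein that marks touch dome and hair follicle keratinocytes, averaged 9.30 ± 0.21 in ILK-deficient and 8.66 ± 0.222 in ILK-expressing epidermis (SD, n = 5 each), a log2 fold change of 0.63 (SE 0.127, limma adjusted p = 0.0236). Krt17, a keratin of touch dome and follicle cells that is also induced in stressed epidermis, rose by 0.29 (SE 0.0645, adjusted p = 0.0325). The hedgehog receptor gene Ptch1 (0.58, adjusted p = 0.307), the transducer Smo (0.36, adjusted p = 0.0941) and the target and effector Gli1 (0.92, adjusted p = 0.0757, named after its values were seen) did not pass. At an unadjusted p under 0.05, 8 of the 10 were higher, against 10.2% of all probe sets. The study names Gli1 as raised in these samples, so this list is not independent evidence of a direction. Leaving out 1 array at a time gave between 0 and 3 calls, with no call without ILK-deficient replicate 2 and 3 without ILK-deficient replicate 3. Every other set gave 1 call. That included the set without ILK-expressing replicate 5, by a narrow margin the array least like the others (median correlation 0.974 with the other 9, against 0.975 to 0.986).

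Polycomb repressors hold Merkel cell genes such as Sox2 and Atoh1 silent in keratinocytes of the mouse. Of 12 tested, 2 were called higher and none lower, with a median log2 fold change of 0.16. Over all probe sets, 2.81% were called higher. At an unadjusted p under 0.05 from limma, 7 of the 12 were higher, against 10.2% of all probe sets. Suz12 (0.33, SE 0.0716, limma adjusted p = 0.032) and the methyltransferase Ezh2 (0.27, SE 0.0597, adjusted p = 0.0338), core subunits of polycomb repressive complex 2, rose. The histone-binding subunit Rbbp4 (0.18, adjusted p = 0.12) and the accessory subunit Jarid2 (0.05, adjusted p = 0.79) did not pass. This list had no call in 9 of the 10 sets that left out 1 array, and 2 calls without ILK-expressing replicate 1.

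Of 11 Notch pathway genes, 1 was called lower and none higher, with a median log2 fold change of -0.06. Over all probe sets, 0.97% were called lower. Dll1, a Notch ligand of the epidermis, measured 7.30, 7.47, 8.03, 7.52 and 7.29 in ILK-deficient and 8.43, 8.05, 8.59, 8.21 and 8.44 in ILK-expressing arrays. ILK-deficient replicate 3 was the only ILK-deficient array above 8, and it did not reach the lowest ILK-expressing array. The log2 fold change was -0.82 (SE 0.151, limma adjusted p = 0.0167), and Dll1 was called in all 10 sets that left out 1 array (adjusted p 0.00474 to 0.0473). The receptors Notch1 (0.13, adjusted p = 0.565) and Notch2 (-0.08, adjusted p = 0.797) did not pass.

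The keratinocytes that make up most of the tissue were recorded by 7 markers, all above the chemoreceptor percentile, with a mean level of 13.22 to 13.28 in ILK-deficient and 13.25 to 13.41 in ILK-expressing arrays. Krt14, whose promoter drives Cre, fell by 0.23 (SE 0.0558, limma adjusted p = 0.0452), and the basal transcription factor Trp63 rose by 0.35 (SE 0.0669, adjusted p = 0.0204). The differentiation keratins Krt1 (-0.06, adjusted p = 0.753) and Krt10 (-0.04, adjusted p = 0.858) did not pass. Endothelial markers, among them Cdh5 (0.05, adjusted p = 0.845) and Emcn (0.00, adjusted p = 0.99), were within the chemoreceptor range on most arrays, and none of 5 was called. Of 5 leukocyte markers, 1 was called higher, Lyz2, a lysozyme of myeloid cells (0.45, limma adjusted p = 0.0375). Over all probe sets, 2.81% were called higher. Lyz2 was above the chemoreceptor percentile on no array, so this call rests on low signal. Cd3e of T cells (0.18, adjusted p = 0.871) and Cd74 of antigen-presenting cells (-0.29, adjusted p = 0.469) did not pass. Of 4 gland markers none was called, among them the water channel Aqp5 (-0.08, adjusted p = 0.74) and the transcription factor Foxi1 (-0.03, adjusted p = 0.909).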

How the data were processed

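The authors deposited 1 log2 value per probe set and array, background-adjusted, quantile-normalized and summarised over probes. The methods name GC-RMA and RMA, with Partek for analysis, and which made the table is not given in the sources used here. Values were used as deposited, genotypes came from the sample labels, and all 35556 probe sets were read. Arrays carry no counts, and their number limits the precision. Genes were named through the platform annotation, from probe sets with 1 symbol (21789), by the probe set with the highest mean where there were several. Tests used limma 3.58.1 in R 4.3.3 (moderated test, no covariate), Benjamini-Hochberg over 32046 probe sets past the filter, and Python 3.11.15 for exact permutations. The fit was tested on simulated data. The Merkel cell genes and the lists were chosen with earlier results of these data known. Of each list, up to 4 called genes and 2 uncalled genes of highest mean are named, with the 3 genes most like each Merkel cell gene. Alternatives changed filter, scaling, test, weights, block, probe sets and arrays. Values of single exons were not used here.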

Additional observations from a re-analysis of the deposited data

How the results depend on the processing

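Atoh1, Krt8, Krt18, Krt20, Isl1 and Insm1 kept their direction and stayed uncalled under every alternative run for them. The Piezo2 log2 fold change stayed between 0.33 and 0.43 over 21 alternatives and its call held in 14. With replicate number as a block it was 0.37 (adjusted p = 0.0911 from limma), with the letter prefix of the array labels as a block 0.37 (0.0563), and with the arrays of prefix D only 0.43 (0.0894). Same-numbered arrays correlated above 0.1 in 1 of 5 pairs and none matched its own number best, so the numbers were not taken as pairs. Sox2 changed sign, at 0.0183 with the prefix block and between -0.0358 and 0.0254 with 1 array left out. The number of Merkel cell genes called was 0 with the replicate block, the prefix block, prefix D only, the methods' rule of 1.5-fold at an unadjusted p under 0.05, and the filter at the chemoreceptor percentile, where only Krt8 could be tested, and 0 to 1 with 1 array left out. Over all probe sets, 1211 were called, against 686 by analysis of variance, 608 with the replicate block, 297 with prefix D only and 597 to 1010 with 1 array left out. Scaling and weights moved the count in both directions, to 848 with median-centred arrays, 1493 with quantile normalization repeated and 1305 with array weights. Leaving out arrays was added after the data were seen for 4 lists and for Dll1 and Ncam1, and gave 1 to 4 melanocyte calls and 1 Notch call throughout. The meaning of the prefixes is not given in the sources used here, and the cause of these changes was not tested. Signal near that of chemoreceptor probe sets limits all genes but Krt8.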
